A study of Mus musculus with 10 samples.

Results

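Most of the genes described here act as cells enter and pass through mitosis. They cover cyclins and kinases of mitotic entry, the spindle checkpoint, mitotic kinesins, kinetochore proteins, condensin and chromosome-associated proteins. The choice by symbol also took in Cdca7, tied to chromatin remodelling and DNA methylation, and its relative Cdca7l. All genes were chosen among those named in the authors' deposited tables of changed probe sets. The choice used a list of well-known mitotic genes and the symbol beginnings Kif, Cenp, Ncap, Smc, Spc2, Ndc80 and Cdca (without Cdca8). This gave 41 of the 634 named genes, 36 on the 430A array and 28 on the U74Av2 array, with 23 on both. Kif23, Nek2 and Cenpe were on the list of symbols but not in the tables, and were not analysed here. Cdk1 appears in the tables under its older symbol Cdc2a. Because a gene has a name here only if the authors had listed it as changed on these same arrays, a count of members that differ is a description and no independent support.

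The arrays measured RNA of isolated ureteric buds of Swiss Webster mouse embryos at E11.5. The ureteric bud is the epithelial tube that branches into the collecting system of the kidney, and GDNF is the growth factor from the surrounding mesenchyme that acts on it through the receptor Ret. On each array type, 3 arrays carried RNA of buds grown in Matrigel with 100 ng/mL GDNF for 16 h (plus GDNF), and 2 carried RNA of buds grown for 16 h without it (minus GDNF), with no genetic change named for either group. The buds had no kidney mesenchyme beside them, and each array held RNA of 5 to 6 pooled batches of 30 to 40 buds, so single buds or embryos were not sampled. Whole buds were measured, so a larger share of dividing cells and more RNA per dividing cell cannot be told apart.

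In dividing cells, cyclin B bound to Cdk1 starts mitosis, condensin compacts the chromosomes, kinesins build the spindle, and kinetochores attach chromosomes to it. The spindle checkpoint holds back the anaphase-promoting complex until all chromosomes are attached. Transcripts of many of these genes build up late in the cell cycle, and their promoters are known for CCAAT boxes, bound by NF-Y, and for the cell cycle genes homology region (CHR), bound by MuvB complexes that pair with B-Myb and FoxM1 or, in resting cells, with the repressive DREAM proteins. The tip of the growing ureteric bud is known as a region of dense cell division.

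Promoter windows of 300 bases, from 250 before to 50 after the annotated gene start, were taken from RefSeq (GRCm38.p6), which held a window for 37 of the 41 members. Those shown belong to the member with the largest 430A change among the members with a window in each role group, namely Ccnb2 (chr9:70421505-70421804, minus strand), Bub1 (chr2:127831810-127832109, minus strand), Kif11 (chr19:37376132-37376431, plus strand), Cenpa (chr5:30666636-30666935, plus strand), Ncapg (chr5:45669675-45669974, plus strand) and Mki67 (chr7:135716330-135716629, minus strand). Plk4 (chr3:40799701-40800000, plus strand) is added as a member with neither motif. Each is written 5′ to 3′ on its gene's strand, and capitals mark CCAAT or the CHR letters TTTGAA or TTCGAA on either strand, so that ATTGG and TTCAAA mark matches on the other strand.
Ccnb2: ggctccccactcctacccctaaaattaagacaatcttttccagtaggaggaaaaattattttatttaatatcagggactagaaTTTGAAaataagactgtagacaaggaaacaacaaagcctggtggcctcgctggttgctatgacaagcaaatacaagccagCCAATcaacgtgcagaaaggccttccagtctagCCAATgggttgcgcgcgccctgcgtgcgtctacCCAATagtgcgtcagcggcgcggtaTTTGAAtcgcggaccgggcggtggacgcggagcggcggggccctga
Bub1: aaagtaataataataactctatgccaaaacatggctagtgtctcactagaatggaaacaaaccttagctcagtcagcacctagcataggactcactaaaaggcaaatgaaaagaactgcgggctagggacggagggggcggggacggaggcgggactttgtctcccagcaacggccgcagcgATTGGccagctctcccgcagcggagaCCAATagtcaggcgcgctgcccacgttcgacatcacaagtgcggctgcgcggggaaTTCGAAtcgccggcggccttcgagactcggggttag
Kif11: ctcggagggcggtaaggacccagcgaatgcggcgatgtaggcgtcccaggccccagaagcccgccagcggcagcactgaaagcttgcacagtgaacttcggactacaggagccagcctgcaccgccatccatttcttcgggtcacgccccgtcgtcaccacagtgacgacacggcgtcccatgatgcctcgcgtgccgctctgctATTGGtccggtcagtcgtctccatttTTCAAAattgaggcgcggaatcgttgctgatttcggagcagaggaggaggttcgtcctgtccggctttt
Cenpa: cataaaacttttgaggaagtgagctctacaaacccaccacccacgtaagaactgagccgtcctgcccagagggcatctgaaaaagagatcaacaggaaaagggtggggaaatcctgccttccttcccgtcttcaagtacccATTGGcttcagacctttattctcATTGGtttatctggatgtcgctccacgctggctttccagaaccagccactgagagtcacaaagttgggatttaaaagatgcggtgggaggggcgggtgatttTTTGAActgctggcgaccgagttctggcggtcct
Ncapg: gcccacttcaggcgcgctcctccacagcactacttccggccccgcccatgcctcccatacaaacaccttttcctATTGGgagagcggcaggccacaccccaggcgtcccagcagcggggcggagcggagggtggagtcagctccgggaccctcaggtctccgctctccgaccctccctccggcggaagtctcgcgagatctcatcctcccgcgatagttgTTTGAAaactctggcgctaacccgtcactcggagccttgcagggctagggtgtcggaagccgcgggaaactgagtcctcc
Mki67: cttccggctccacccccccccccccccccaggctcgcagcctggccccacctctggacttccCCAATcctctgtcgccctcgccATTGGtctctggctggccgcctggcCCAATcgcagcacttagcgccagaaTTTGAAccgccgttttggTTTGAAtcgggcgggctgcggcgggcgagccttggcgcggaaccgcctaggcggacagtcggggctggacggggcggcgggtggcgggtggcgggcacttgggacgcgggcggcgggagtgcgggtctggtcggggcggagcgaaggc
Plk4: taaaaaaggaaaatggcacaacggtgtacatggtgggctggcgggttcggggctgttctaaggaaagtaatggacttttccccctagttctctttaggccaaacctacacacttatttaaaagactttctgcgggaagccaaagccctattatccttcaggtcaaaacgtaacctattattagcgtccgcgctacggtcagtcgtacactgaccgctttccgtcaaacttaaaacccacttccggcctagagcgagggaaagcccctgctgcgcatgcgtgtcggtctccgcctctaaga

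Ccnb2 held 3 CCAAT matches, at -87, -54 and -21 from the gene start, followed by CHR letters at 5, and a further CHR match at -167. Bub1, Kif11, Cenpa and Ncapg showed the same order, with CCAAT upstream of the CHR letters, which lay at 15 in Bub1, -19 in Kif11, 17 in Cenpa and -30 in Ncapg. Mki67 held 2 CHR matches, at -116 and -98, downstream of CCAAT matches at -188, -166 and -141. Among the members with a window, 29 of 37 (78.4%) held CCAAT, against 48.9% of the 358 other genes listed as higher, 33.7% of the 104 genes listed as lower and 41.1% of all 27025 genes in the promoter table. CHR letters stood in 26 of 37 members (70.3%), against 23.2%, 17.3% and 21.7% in the same 3 sets. Both together stood in 23 of 37 members (62.2%), against 14.0%, 2.88% and 8.61%. The E2F letters TTTGGCGC, TTTCGCGC or TTTCCCGC were in 5 members (13.5%), against 11.7%, 0.96% and 2.12%. The forkhead letters GTAAACA were in 1 member (2.70%), against 3.07%, 0.96% and 4.05%. All motifs were read on both strands, and the letters of no motif contain those of another. In members with matches the median position was -72 for CCAAT (68 matches) and -18 for CHR (38 matches). The letters are a description of these windows and do not show binding.

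**Figure D1:**
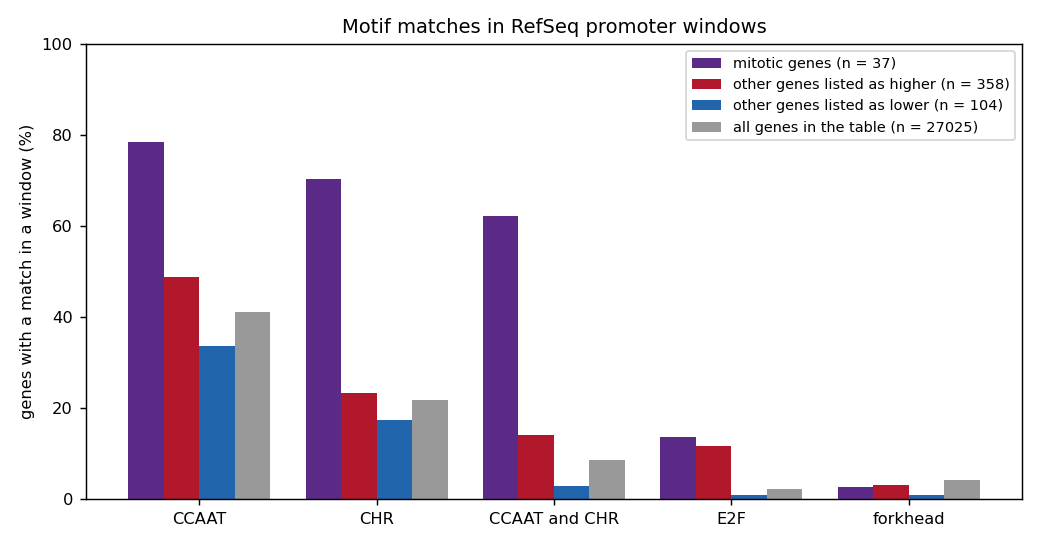
Percent of genes with a promoter window that hold each motif, by gene set. CHR letters were in 70.3% of members and CCAAT in 78.4%, against 21.7% and 41.1% of all genes in the promoter table.

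The size of the GDNF difference varied little with the CHR letters. On 430A the median log2 change was 0.87 in 24 members with CHR letters and 0.85 in 9 members without. On U74Av2 it was 1.18 in 16 members with them and 1.21 in 8 without. Kif2a, Mad2l1, Ncaph and Plk4 on 430A held neither CHR letters nor CCAAT and had a median of 0.74, and Cdca7, Mad2l1, Ncaph and Plk4 on U74Av2 had one of 1.17. Members with both CHR letters and CCAAT had medians of 0.92 on 430A (21 genes) and 1.18 on U74Av2 (15 genes). All members had passed the authors' fold filter, so genes with smaller changes are absent from every set. None of these differences was tested.

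Intensities are the authors' deposited linear values for each probe set, and each array type was fitted alone. Over all tested probe sets the median log2 change was -0.07 on 430A and -0.04 on U74Av2. The Gapdh 3′ to 5′ signal ratio, which rises when RNA is degraded or short, was 1.52 in plus GDNF array 3 and 1.74 in minus GDNF array 2 on 430A, and between 1.09 and 1.19 in the other arrays. On U74Av2 it was 1.46 and 1.60 in those arrays, and between 1.06 and 1.22 in the others. These arrays therefore stand apart in each group. Of the bud epithelium markers 6 of 16 were named on 430A, with a summed intensity of 15229 to 15568 with GDNF and 15740 to 16257 without. They did not move together: Ret, Wnt11, Calb1 and Lhx1 had log2 changes of 1.49, 1.04, 0.72 and 0.64, and Cdh16 and Krt8 had -0.92 and -0.52. Of the mesenchyme markers 3 of 9 were named there (Cdh11, Cited1 and Ncam1), with a sum of 1372 to 1382 with GDNF and 1991 to 2116 without. The 3 of 10 stroma markers named (Postn, Tcf21 and Vim) summed to 1464 to 2018 with GDNF and 2796 to 2798 without. On U74Av2 the 3 bud markers named (Calb1, Ret and Wnt11) summed to 4339 to 5568 with GDNF and 1711 to 2223 without. All 3 were among those higher on 430A, and Cdh16 and Krt8, lower there, were not named on U74Av2. Without GDNF, Wnt11 lay at 39.2 and 30.3 on U74Av2, under the floor of 65.0. The 1 mesenchyme marker on U74Av2 (Ncam1) lay at 614 to 738 with GDNF and 946 to 1106 without. The 1 stroma marker there (Acta2) lay at 399 to 513 with GDNF and 507 to 705 without. None of these named markers was at 0, no endothelial or blood marker was named, and the part of these differences in the results was not tested.

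All 36 members on 430A and all 28 on U74Av2 were higher with GDNF, where 36.7% and 43.7% of all tested probe sets were. Of the other named genes, which the authors had also listed as changed, 380 of 507 (74.95%) were higher on 430A and 213 of 247 (86.2%) on U74Av2. The authors' deposited tables listed 2.40% and 2.20% of all probe sets as higher. In each member the lowest plus GDNF array was above the highest minus GDNF array. Of all tested probe sets 14.9% on 430A and 17.3% on U74Av2 were separated this way, and so were all 380 other named higher genes on 430A and 211 of 213 on U74Av2, since the authors' filter selects such genes. With limma and Benjamini-Hochberg adjustment over the whole table, 0 of 36 members passed an adjusted p of 0.05 on 430A, where 0% of all probe sets passed. On U74Av2 0 of 28 passed, where 0.00944% of all did. At an adjusted p of 0.1, 21 of 36 passed on 430A, against 0.902% of all probe sets called higher, and 0 of 28 on U74Av2, against 0.0472%. An unadjusted p of 0.05 was passed by 36 of 36 and 28 of 28 members, against 8.21% and 7.77% of all probe sets called higher. It was also passed by 380 of 380 other named higher genes on 430A and 210 of 213 on U74Av2. The authors' filter selects such genes. The adjusted p of 0.1 was passed by 109 of these 380 genes on 430A and 5 of these 213 on U74Av2. The authors' criteria were also recomputed from the deposited intensities, with fold bounds from a pooled variance in place of the authors' own bounds. This kept 31 of 36 on 430A (1.67% of all) and 22 of 28 on U74Av2 (2.04%). Every member had met the criteria in the authors' tables, so members not kept show only that the recomputed values differ. On 430A the count at 0.05 moved with the settings, with 6 of 36 members called with a lower floor (0.132% of all), 7 of 36 with trended robust variance (0.220%) and 19 of 30 above the median level (1.21%). On U74Av2 the same 3 settings called 0 members, against 0.00860%, 0.0283% and 0.0805% of all probe sets.

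The median log2 change of the members was 0.88 on 430A, between 0.55 for Kif2a and 1.52 for Ncapg, and 1.18 on U74Av2, between 0.57 for Cenpa and 1.54 for Ncaph. The other named higher genes had medians of 0.67 on 430A and 0.81 on U74Av2, a difference that was not tested. In the authors' deposited tables the folds of members ran between 1.46 and 2.95 on 430A and between 1.45 and 3.04 on U74Av2. The lowest lower bound of a member's fold in the authors' deposited table was 1.20, for Cdc20 on U74Av2, at the limit of 1.2 that their filter set. The filter also required a difference of group means over 100. Genes below either limit carry no name here, so no value just outside these limits can be given.

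**Figure D2:**
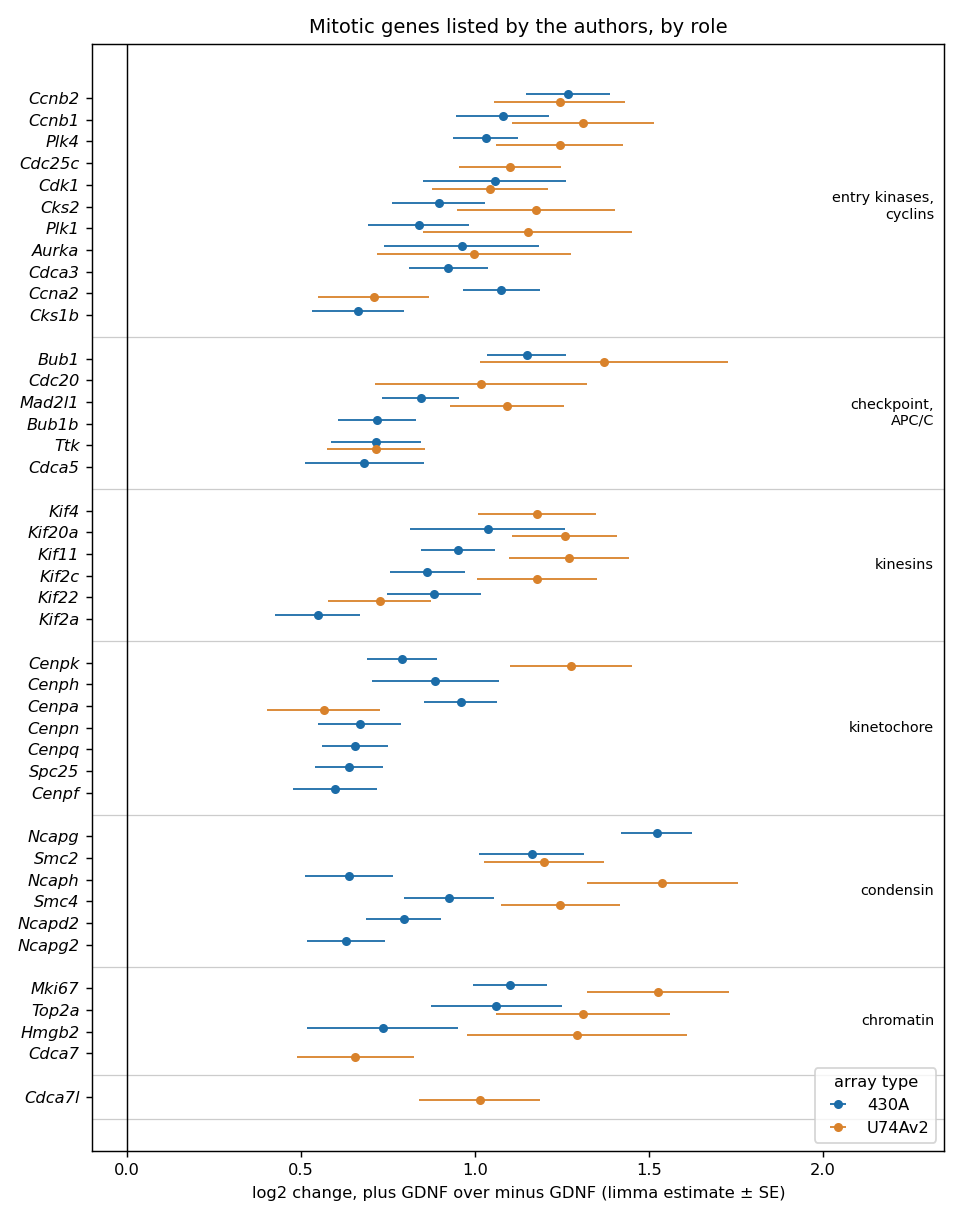
Log2 change with GDNF (plus minus minus GDNF) ± limma SE for each member, grouped by role, on 430A and U74Av2. All points lie above 0, between 0.55 and 1.52 on 430A and between 0.57 and 1.54 on U74Av2.

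The 11 genes of mitotic entry had a median log2 change of 1.00 on 430A (10 genes) and 1.15 on U74Av2 (9 genes). Ccnb2 encodes a B-type cyclin, which switches on Cdk1. Ccnb2 on 430A measured 1001, 822 and 834 in the plus GDNF arrays, against 372 and 359.9 in the minus GDNF arrays. On U74Av2, Ccnb2 measured 1535, 1292 and 1213 in the plus GDNF arrays, against 644 and 497 in the minus GDNF arrays. The Ccnb2 arrays with GDNF were all more than any without it, with log2 changes of 1.27 ± 0.12 on 430A (limma adjusted p = 0.0544) and 1.24 ± 0.19 on U74Av2 (± limma's SE here and throughout). Ccnb1, the other main B-type cyclin, measured 1105, 1101 and 937 in the plus GDNF arrays, against 542 and 450.3 in the minus GDNF arrays on 430A. Ccnb1 on U74Av2 gave 544, 591 and 509 in the plus GDNF arrays, against 268 and 182 in the minus GDNF arrays. The Ccnb1 groups did not overlap, with log2 changes of 1.08 ± 0.13 on 430A and 1.31 ± 0.20 on U74Av2. Its 3 listed 430A probe sets ran between 0.92 and 1.42 in log2 change. Cdk1 is the kinase that drives mitotic entry. Cdk1 on 430A measured 2267, 2101 and 1533 in the plus GDNF arrays, against 1059.6 and 820.4 in the minus GDNF arrays. Cdk1 on U74Av2 gave 2150.1, 1843 and 1639.6 in the plus GDNF arrays, against 916 and 894 in the minus GDNF arrays. The Cdk1 level of plus GDNF array 3 was the lowest of its group on both types, still above both minus GDNF arrays. The Cdk1 log2 change was 1.06 ± 0.21 on 430A and 1.04 ± 0.17 on U74Av2.

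Ccna2 encodes cyclin A2, which acts in S phase and at mitotic entry. Ccna2 on 430A measured 1089.8, 1014 and 1021 in the plus GDNF arrays, against 535 and 455 in the minus GDNF arrays, and its log2 change was 1.08 ± 0.11. Ccna2 on U74Av2 gave 1050.3, 892 and 897 in the plus GDNF arrays, against 533 and 625 in the minus GDNF arrays, a smaller log2 change of 0.71 ± 0.16. The phosphatase Cdc25c, which removes the inhibitory phosphates of Cdk1, was listed on U74Av2 only. Cdc25c measured 344, 371 and 309.7 in the plus GDNF arrays, against 157 and 160.2 in the minus GDNF arrays, with the minus GDNF arrays close together and a log2 change of 1.10 ± 0.15. Cks2 is a small subunit that binds Cdk1. Cks2 on 430A measured 1541, 1587 and 1542 in the plus GDNF arrays, against 954 and 733 in the minus GDNF arrays. Cks2 on U74Av2 gave 1127, 1056 and 901 in the plus GDNF arrays, against 563 and 364 in the minus GDNF arrays. The lower minus GDNF array of Cks2 was array 2 on both types, and the log2 change was 0.90 ± 0.13 on 430A and 1.18 ± 0.23 on U74Av2. Cks1b, its close relative, had a log2 change of 0.66 ± 0.13 on 430A.

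Plk1 is the polo kinase of centrosome maturation and mitotic entry. Plk1 on 430A measured 1336, 1254 and 1021 in the plus GDNF arrays, against 631 and 709 in the minus GDNF arrays. Plk1 on U74Av2 gave 1054, 905 and 605 in the plus GDNF arrays, against 462 and 304 in the minus GDNF arrays. The spread of Plk1 within the plus GDNF group was wide on U74Av2, and its log2 change was 0.84 ± 0.15 on 430A and 1.15 ± 0.30 on U74Av2 (limma adjusted p = 0.329). Plk4 starts the duplication of centrioles. Plk4 on 430A measured 589, 544 and 559 in the plus GDNF arrays, against 271 and 281 in the minus GDNF arrays. Plk4 on U74Av2 gave 548, 573 and 443 in the plus GDNF arrays, against 241 and 199 in the minus GDNF arrays. Plk4, whose promoter window printed above held neither motif, had log2 changes of 1.03 ± 0.09 on 430A and 1.24 ± 0.18 on U74Av2. A second 430A probe set of Plk4 gave 0.78 ± 0.11. Aurka, a kinase of spindle poles, measured 657, 604 and 460.5 in the plus GDNF arrays, against 354 and 239 in the minus GDNF arrays on 430A. Aurka on U74Av2 gave 410.5, 422 and 278 in the plus GDNF arrays, against 228 and 146 in the minus GDNF arrays. In both tables the plus GDNF array 3 of Aurka was nearest to the minus GDNF group, and the log2 change was 0.96 ± 0.22 on 430A and 1.00 ± 0.28 on U74Av2. Cdca3, a protein linked in Xenopus to destruction of the mitotic inhibitor Wee1, was listed on 430A only and measured 736, 715 and 843 in the plus GDNF arrays, against 419 and 386 in the minus GDNF arrays. The Cdca3 log2 change was 0.92 ± 0.11, and its highest array was plus GDNF array 3.

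Checkpoint and anaphase genes had a median log2 change of 0.72 on 430A (5 genes) and 1.06 on U74Av2 (4 genes). Bub1 is a kinase of the spindle checkpoint at kinetochores. Bub1 on 430A measured 646, 641 and 575 in the plus GDNF arrays, against 299.8 and 261 in the minus GDNF arrays. Bub1 on U74Av2 gave 482, 426 and 278 in the plus GDNF arrays, against 206 and 107 in the minus GDNF arrays. The Bub1 log2 changes were 1.15 ± 0.11 on 430A and 1.37 ± 0.36 on U74Av2, where both groups were wide and the value was 0.90 without minus GDNF array 2. Mad2l1 encodes Mad2, which binds and holds Cdc20. Mad2l1 on 430A measured 1065, 909 and 922 in the plus GDNF arrays, against 526 and 546 in the minus GDNF arrays. Mad2l1 on U74Av2 gave 836, 712 and 912 in the plus GDNF arrays, against 395 and 369 in the minus GDNF arrays. The Mad2l1 minus GDNF arrays lay close together on both types, and the log2 change was 0.85 ± 0.11 on 430A and 1.09 ± 0.16 on U74Av2. Ttk, the kinase known as Mps1, recruits checkpoint proteins. Ttk on 430A measured 413, 376 and 346 in the plus GDNF arrays, against 209.9 and 251 in the minus GDNF arrays. Ttk on U74Av2 gave 303, 282 and 324 in the plus GDNF arrays, against 179.6 and 188 in the minus GDNF arrays. The Ttk log2 change was 0.72 ± 0.13 on 430A and 0.72 ± 0.14 on U74Av2, the same to 2 decimals. Bub1b, which encodes the checkpoint protein BubR1, measured 1134, 1011 and 1049 in the plus GDNF arrays, against 692 and 603 in the minus GDNF arrays on 430A. The Bub1b log2 change was 0.72 ± 0.11, with all plus GDNF arrays above the others. Cdc20, the activator that the checkpoint restrains, was listed on U74Av2 only and measured 1823, 1529.8 and 1057 in the plus GDNF arrays, against 892 and 563 in the minus GDNF arrays. The gap between the Cdc20 groups was the narrowest of the U74Av2 members, with the lowest plus array 1.19 times the highest minus array and a log2 change of 1.02 ± 0.30. Cdca5, known as sororin and a protector of sister chromatid cohesion, had a log2 change of 0.68 ± 0.17 on 430A.

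Kinesins had a median log2 change of 0.88 on 430A (5 genes) and 1.18 on U74Av2 (5 genes). Kif11, also called Eg5, pushes spindle poles apart. Kif11 on 430A measured 390.1, 343 and 347 in the plus GDNF arrays, against 179 and 193 in the minus GDNF arrays. Kif11 on U74Av2 gave 383, 324 and 357 in the plus GDNF arrays, against 166 and 129.99 in the minus GDNF arrays. The Kif11 log2 change was 0.95 ± 0.11 on 430A, where a second probe set gave 0.59, and 1.27 ± 0.17 on U74Av2. Kif20a carries passenger proteins to the spindle midzone. Kif20a on 430A measured 447, 367 and 289 in the plus GDNF arrays, against 207 and 151 in the minus GDNF arrays. Kif20a on U74Av2 gave 703, 647 and 762 in the plus GDNF arrays, against 312 and 276 in the minus GDNF arrays. The Kif20a log2 change was 1.04 ± 0.22 on 430A and 1.26 ± 0.15 on U74Av2. The U74Av2 probe set of Kif20a has an ID suffix marking probes that may match other transcripts, and its second U74Av2 probe set gave 1.23. Kif22 is a chromokinesin that pushes chromosome arms to the spindle equator. Kif22 on 430A measured 312, 302 and 263 in the plus GDNF arrays, against 175 and 105 in the minus GDNF arrays. Kif22 on U74Av2 gave 1206, 1044 and 1235 in the plus GDNF arrays, against 708 and 692 in the minus GDNF arrays. One minus GDNF array of Kif22 on 430A was under the floor of 143, so its log2 change of 0.88 ± 0.13 there is understated (0.31 with a floor at the 40th percentile), and on U74Av2 it was 0.73 ± 0.15. Kif2c, which takes microtubules apart at centromeres, measured 605, 583 and 603 in the plus GDNF arrays, against 355 and 303 in the minus GDNF arrays on 430A. Kif2c on U74Av2 gave 287, 302 and 307 in the plus GDNF arrays, against 152 and 114 in the minus GDNF arrays. For these probe sets the Kif2c plus GDNF arrays were within a narrow range on both types. Their log2 change was 0.86 ± 0.11 on 430A and 1.18 ± 0.17 on U74Av2. A second 430A probe set of Kif2c measured 334, 324 and 251 with GDNF, against 208 and 128 without. It gave 0.80 ± 0.20, with 1 minus GDNF array under the floor. Kif4, a chromokinesin that works with condensin and at the midzone, was listed on U74Av2 only. Kif4 measured 312, 284 and 284 in the plus GDNF arrays, against 148 and 114 in the minus GDNF arrays, a log2 change of 1.18 ± 0.17. Kif2a, a microtubule depolymerase of spindle poles, had the smallest log2 change of the 430A members, 0.55 ± 0.12.

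Kinetochore genes had a median log2 change of 0.67 on 430A (7 genes) and 0.92 on U74Av2 (2 genes). Cenpa is the histone variant that marks centromeres. Cenpa on 430A measured 679.97, 618 and 605 in the plus GDNF arrays, against 342 and 311 in the minus GDNF arrays. Cenpa on U74Av2 gave 517, 446 and 474 in the plus GDNF arrays, against 291 and 358 in the minus GDNF arrays. The Cenpa log2 change was 0.96 ± 0.11 on 430A and 0.57 ± 0.16 on U74Av2, where it was the smallest of the members. Cenpk belongs to the inner kinetochore proteins that stay at the centromere. Cenpk on 430A measured 326, 323 and 356 in the plus GDNF arrays, against 186 and 201 in the minus GDNF arrays. Cenpk on U74Av2 gave 269.5, 289 and 319 in the plus GDNF arrays, against 137 and 106 in the minus GDNF arrays. The Cenpk level was highest in plus GDNF array 3 on both types, and the log2 change was 0.79 ± 0.10 on 430A and 1.28 ± 0.18 on U74Av2. Cenpq, another inner kinetochore protein, measured 395, 374 and 356 in the plus GDNF arrays, against 238 and 238 in the minus GDNF arrays on 430A. Spc25, a subunit of the Ndc80 complex that grips microtubules, measured 753, 749 and 829.6 in the plus GDNF arrays, against 496 and 501 in the minus GDNF arrays on 430A. Cenpn, which binds the Cenpa nucleosome, measured 326, 296 and 278 in the plus GDNF arrays, against 202 and 175 in the minus GDNF arrays on 430A. The groups of these genes did not overlap, with log2 changes of 0.66 ± 0.10 for Cenpq, 0.64 ± 0.10 for Spc25 and 0.67 ± 0.12 for Cenpn. The remaining kinetochore members had log2 changes of 0.60 ± 0.12 for Cenpf, a large protein of the outer kinetochore, and 0.89 ± 0.18 for Cenph, an inner kinetochore protein. A floor at the 40th percentile lowered the changes of dim kinetochore genes, to 0.27 for Cenph, 0.34 for Cenpn and 0.51 for Cenpk.

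Condensin genes had a median log2 change of 0.86 on 430A (6 genes) and 1.25 on U74Av2 (3 genes). Ncapg is a subunit of condensin I. Ncapg on 430A measured 419, 429.7 and 458 in the plus GDNF arrays, against 160.1 and 137 in the minus GDNF arrays. With a log2 change of 1.52 ± 0.10 it had the smallest limma p of the 19521 probe sets tested on 430A (adjusted p = 0.0544), one of its minus GDNF arrays being under the floor. With a floor at the 40th percentile its log2 change was 0.88, and the largest member change on 430A was 1.27, of Ccnb2. Ncapd2, also of condensin I, measured 742, 715 and 731 in the plus GDNF arrays, against 455 and 388 in the minus GDNF arrays on 430A. Ncapg2, a subunit of condensin II, measured 441, 392 and 384 in the plus GDNF arrays, against 248 and 276 in the minus GDNF arrays on 430A. The groups did not overlap in either gene, with log2 changes of 0.80 ± 0.11 for Ncapd2 and 0.63 ± 0.11 for Ncapg2. Smc2 is a core ATPase of both condensins. Smc2 on 430A measured 844, 818 and 731 in the plus GDNF arrays, against 410.00 and 308 in the minus GDNF arrays. Smc2 on U74Av2 gave 926, 836 and 766 in the plus GDNF arrays, against 411 and 326 in the minus GDNF arrays. The Smc2 log2 changes were close, 1.16 ± 0.15 on 430A and 1.20 ± 0.17 on U74Av2. Smc4 is the partner of Smc2. Smc4 on 430A measured 1064, 857 and 934 in the plus GDNF arrays, against 530.2 and 469.98 in the minus GDNF arrays. Smc4 on U74Av2 gave 725, 642 and 850.01 in the plus GDNF arrays, against 320.00 and 299 in the minus GDNF arrays. The Smc4 log2 change was 0.93 ± 0.13 on 430A, where a second probe set gave 1.37, and 1.25 ± 0.17 on U74Av2. Ncaph is the condensin I subunit that links the core ATPases. Ncaph on 430A measured 1132, 951 and 995 in the plus GDNF arrays, against 606 and 712 in the minus GDNF arrays. Ncaph on U74Av2 gave 357, 307 and 278 in the plus GDNF arrays, against 130.1 and 88.9 in the minus GDNF arrays. The Ncaph log2 change was 0.64 ± 0.13 on 430A and 1.54 ± 0.22 on U74Av2, where it was 0.96 with a floor at the 40th percentile. The 430A probe set has a suffix marking probes that may match other transcripts, and a second 430A probe set of Ncaph gave 1.20. Suffixes of this kind also stand on the probe sets given for Plk4, Kif22, Kif2c and Cenpn on 430A and for Plk1 and Cdc25c on U74Av2. The U74Av2 probe sets of Kif22 and Hmgb2 carry another suffix, r, and whether they match other transcripts was not checked. The probe sets given for Cks2 on both types, and for Hmgb2 and Kif2c on U74Av2, carried several gene IDs. Only 1 ID of each matched a current gene.

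Chromosome-associated genes had a median log2 change of 1.06 on 430A (3 genes) and 1.30 on U74Av2 (4 genes). Mki67 encodes Ki-67, the coat of mitotic chromosomes used as a marker of dividing cells. Mki67 on 430A measured 1037, 976 and 999 in the plus GDNF arrays, against 503 and 434 in the minus GDNF arrays. Mki67 on U74Av2 gave 791, 759.6 and 689 in the plus GDNF arrays, against 313 and 214 in the minus GDNF arrays. The gap between the Mki67 groups on U74Av2 was the widest of the members there, 2.20 times, and the log2 change was 1.10 ± 0.11 on 430A and 1.53 ± 0.20 on U74Av2. Top2a untangles DNA before chromosomes part. Top2a on 430A measured 2156, 2083 and 1717 in the plus GDNF arrays, against 1134 and 789.96 in the minus GDNF arrays. Top2a on U74Av2 gave 862, 828 and 761 in the plus GDNF arrays, against 433 and 250.2 in the minus GDNF arrays. The Top2a log2 changes were 1.06 ± 0.19 on 430A and 1.31 ± 0.25 on U74Av2. Hmgb2 is a chromatin protein that bends DNA. Hmgb2 on 430A measured 2427, 2175 and 1606 in the plus GDNF arrays, against 1421 and 1056 in the minus GDNF arrays. Hmgb2 on U74Av2 gave 349, 446 and 361 in the plus GDNF arrays, against 223 and 109 in the minus GDNF arrays. The gap between the Hmgb2 groups on 430A was the narrowest of the members there, 1.13 times. The log2 change of this probe set was 0.74 ± 0.22 (limma adjusted p = 0.244). A second 430A probe set of Hmgb2 gave 0.81 ± 0.12 (limma adjusted p = 0.0817). On U74Av2 the Hmgb2 log2 change was 1.29 ± 0.32. Without minus GDNF array 2 the U74Av2 log2 change of Hmgb2 was 0.78. Cdca7, a factor tied to chromatin remodelling and DNA methylation, was listed on U74Av2 only and measured 1093, 920.5 and 846 in the plus GDNF arrays, against 633 and 571 in the minus GDNF arrays. Cdca7l, its relative outside these role groups, measured 792, 710.2 and 589 in the plus GDNF arrays, against 347 and 338 in the minus GDNF arrays on U74Av2. Its log2 change was 1.01 ± 0.17, against 0.66 ± 0.17 for Cdca7.

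**Figure D3:**
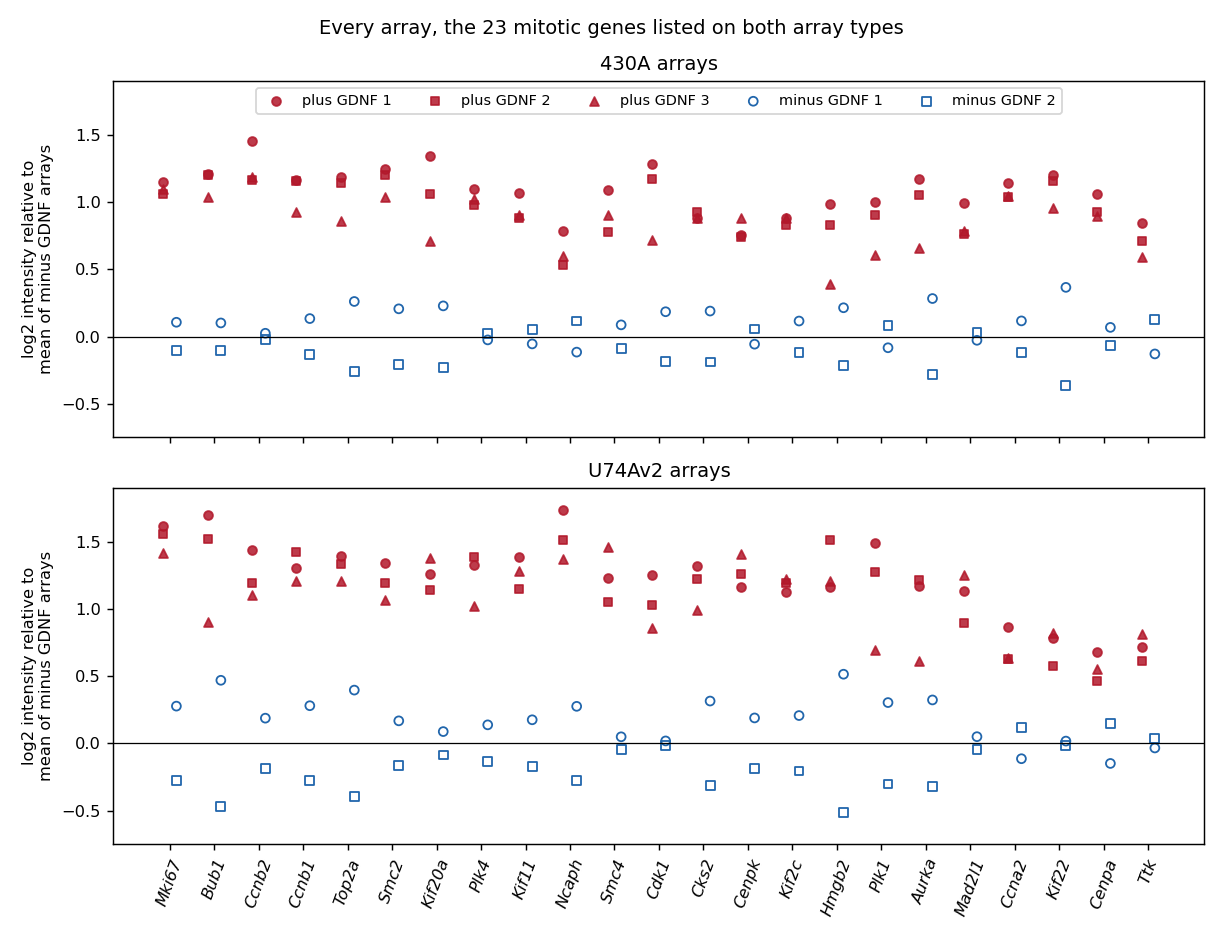
Log2 intensity of the 23 members listed on both array types, for each array, relative to the mean of the minus GDNF arrays, with plus GDNF arrays left of minus GDNF arrays. Every plus GDNF point is above every minus GDNF point of its gene and type.

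For the 23 members on both types the log2 change was larger on U74Av2 in 18 and on 430A in 5. The 2 types were within 0.1 of each other in 5 genes and apart by more than 0.5 in 2, Ncaph and Hmgb2. The gap of Ncaph depended on the probe set, since its second 430A probe set gave 1.20, against 1.54 on U74Av2. For Hmgb2 the U74Av2 log2 change was 0.78 without minus GDNF array 2. Over the 184 genes named on both, the deviation of an array from its group's mean on 430A correlated with that of the array of the same number on U74Av2, with r between 0.41 and 0.59. The Gapdh ratios also had the same order within each group on both types. Whether arrays of the same number shared RNA cannot be settled from the labels, so the types are not taken as independent repeats. The difference between types was not tested.

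In each group the array with the highest Gapdh ratio had the lowest median member level. The median log2 level of the members, relative to the minus GDNF mean, was 0.99, 0.86 and 0.81 in plus GDNF arrays 1, 2 and 3 on 430A, against 0.10 and -0.10 in minus GDNF arrays 1 and 2. On U74Av2 it was 1.25, 1.19 and 1.04 with GDNF, against 0.18 and -0.18 without. Plus GDNF array 3 was the lowest of its group in 18 of 36 members on 430A and 16 of 28 on U74Av2. Plus GDNF array 2, with the lowest Gapdh ratio of its group, was the lowest in 16 members on 430A and 9 on U74Av2. Levels of plus GDNF arrays 1 and 2 thus did not follow the ratio. Minus GDNF array 2 was below array 1 in 24 members on each type. These counts were not made over all probe sets. The Gapdh ratio as a covariate, a choice made after these values were seen, gave 20 of 36 members called higher on 430A (0.748% of all probe sets) and 25 of 28 on U74Av2 (2.20%), with medians of 0.84 and 1.14. Plus GDNF array 3 and minus GDNF array 2 as a block gave 0 of 36 (0.0154%) and 23 of 28 (1.16%). Without these 2 arrays no member passed and the medians were 0.84 and 1.05.

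**Figure D4:**
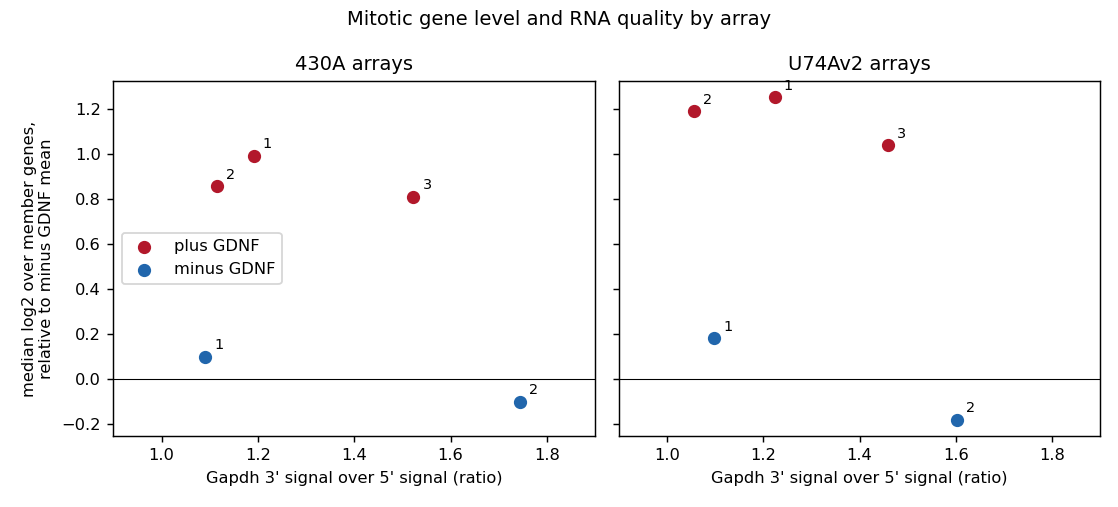
Median log2 level of the members in each array, relative to the minus GDNF mean, against the Gapdh 3′ to 5′ ratio, for 430A and U74Av2. The plus GDNF arrays lie between 0.81 and 1.25, above the minus GDNF arrays, which lie between -0.18 and 0.18.

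Of a list of 38 other spindle and centrosome genes, 14 were named on 430A and 5 on U74Av2, 15 in all, each higher with GDNF and none past the limma test, with medians of 0.74 and 1.03. Of the named genes outside the members 74.95% on 430A and 86.2% on U74Av2 were higher, so this direction is common among them. The largest on 430A was Cep55, a midbody protein, with a log2 change of 1.12 ± 0.10. Of further genes of the checkpoint and the anaphase-promoting complex, Ube2c, Pttg1 and Bub3 were named on 430A, with log2 changes of 1.30 ± 0.21, 0.77 ± 0.15 and 0.49 ± 0.12.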

How the data were processed

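The deposited tables hold 1 linear intensity per probe set and array. The sources used here do not name their normalization. The authors' deposited tables of changed probe sets, made in dChip 1.3 per the series text, hold signed fold changes with bounds, treated as a score. Gene names come from these tables, brought to current symbols with RefSeq. The members and lists were chosen with earlier results of these data known.

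Intensities under the 20th percentile of each table (143 on 430A, 65.0 on U74Av2) were set to it. Control probe sets and those at this floor on all arrays were left out, leaving 19521 and 10588. Log2 values were fitted in limma 3.58.1 under R 4.3.3, each type alone, as plus minus minus GDNF, with Benjamini-Hochberg adjustment and a threshold of 0.05. The script was tested on simulated data. A gene with several listed probe sets is given by the one with the highest mean. Every array is printed for members on both types and, of those on 1 type, for up to 8 per type with the smallest p (8 on 430A, all 5 on U74Av2). Labels do not say that arrays came from separate litters, so p-values measure only the spread between these pools, and their number limits the precision. Alternatives changed the normalization, floor, filter, variance model, threshold and arrays used. No background correction could be tried on values already summarised per probe set.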

Additional observations from a re-analysis of the deposited data

How the results depend on the processing

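All 64 log2 changes of a member on a type stayed positive under the alternatives run (54 of 54 above the median level), but a floor at the 40th percentile cut some by over 1.5 times, on 430A to 0.27 for Cenph, 0.31 for Kif22, 0.34 for Cenpn, 0.51 for Cenpk, 0.61 for Kif11, 0.62 for Kif20a and 0.88 for Ncapg, and on U74Av2 to 0.96 for Ncaph. Values under a floor are set to it, so a higher one shrinks changes of dim genes. Every plus GDNF array of a member lay above its minus GDNF arrays, as the authors' filter selects. Changing the floor or the variance model, or leaving out arrays, therefore could not reverse a sign. The positive signs in those settings are no independent support. On U74Av2, Hmgb2 was at 0.78 and Bub1 at 0.90 without minus array 2, and Hmgb2 at 0.82 without plus array 3 and minus array 2. On 430A the count of all probe sets called was 0 in the fit reported, 30 with a floor at the 10th percentile, 153 above the median level, 48 with trended robust variance, 3 with plus array 3 and minus array 2 as a block, 166 with the Gapdh ratio, 198 at an adjusted p of 0.1, 2588 at an unadjusted p of 0.05 and 484 under the authors' criteria recomputed. Members called there were 6 with that floor, 19 of 30 above the median level, 7 with trended variance, 20 with the Gapdh ratio, 21 at 0.1, 36 unadjusted and 31 under the recomputed criteria. On U74Av2, 1 probe set was called, against 0 with a floor at the 40th percentile, 5 above the median level, 3 with trended variance, 128 with the block of plus array 3 and minus array 2, 267 with the Gapdh ratio, 0 without those arrays, 5 at 0.1, 931 unadjusted and 276 under the recomputed criteria. Members called there were 23 with that block, 25 with the Gapdh ratio, 28 unadjusted and 22 under the recomputed criteria. Leaving out 1 array at a time gave 0 to 1 probe sets on U74Av2, with 0 without plus array 1, plus array 2, minus array 1 or minus array 2, and member medians of 0.99 (without minus array 2) to 1.37 (without minus array 1). A lone minus array is assumed to vary like the other group. The block and Gapdh fits were added after seeing the data. The cause of these shifts was not tested.

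The replicate block on sample numbers called 0 members on both types, and 0 and 1 probe sets in all, with member medians of 0.92 on 430A and 1.21 on U74Av2. The deviations of same-numbered arrays from their group means had r of -0.02 and -0.62 on 430A, and 0.16 and -0.70 on U74Av2. With only 2 minus GDNF arrays, their deviations mirror each other. These values therefore cannot show whether the sample numbers mark pairs.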

Other observations

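Of 19 transcription factors tied to mitotic genes, 4 were named, each higher with GDNF and none past the limma test at 0.05. Most named genes outside the members were also higher, 74.95% on 430A and 86.2% on U74Av2. E2f8, a repressor among the E2F factors, measured 259, 305 and 283 in the plus GDNF arrays of U74Av2, against 91.5 and 82.4 in the minus GDNF arrays, a log2 change of 1.70 ± 0.15 (limma adjusted p = 0.0604). Myb had log2 changes of 0.85 on 430A and 1.45 on U74Av2, both understated because 1 minus GDNF array on each type was under the floor. Tfdp1, the partner of E2F factors, had 0.48 on 430A and 0.89 on U74Av2. Rbl1, a pocket protein of the DREAM complex, had 0.80 on 430A.

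Of 14 inhibitors of cell cycle progress, 3 were named, each lower with GDNF and none past the test. Among the named genes outside the members, 127 of 507 on 430A and 34 of 247 on U74Av2 were lower. Over all tested probe sets, only 36.7% on 430A and 43.7% on U74Av2 were higher. Cdkn1a, the inhibitor p21, measured 1195, 1314 and 1398 in the plus GDNF arrays of 430A, against 2043 and 1907 in the minus GDNF arrays. Btg2 had a log2 change of -0.49 ± 0.10 on 430A, and Gadd45b one of -0.57 ± 0.20 on U74Av2. All these genes were listed by the authors as changed on the same arrays.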
